A study of Mus musculus with 15 samples.

Results

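The nuclear genes of oxidative phosphorylation were followed in hippocampal RNA of trained and untrained mice. They were taken by symbol from the Ensembl annotation of mm9: every gene whose symbol begins with Nduf, Uqcr, Atp5, Cox4, Cox5, Cox6, Cox7 or Cox8, together with Sdha, Sdhb, Sdhc, Sdhd, Cyc1 and Cycs, leaving out symbols with -ps. The rule found 94 of the 37310 annotated genes. They fell into complex I (39 identifiers, 2 of them named Ndufb8), its assembly factors Ndufaf1 to Ndufaf4 (4), complex II (4), complex III (9), cytochrome c (1, Cycs), complex IV (19) and complex V (18). A symbol rule also takes in neighbours: Cox4nb, filed under complex IV, lies head to head with Cox4i1 and encodes a subunit of a membrane complex of the endoplasmic reticulum, Atp5l2 is annotated as a pseudogene, and Ndufa4, filed under complex I by its name, is known as a subunit of complex IV.

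Groups of wild-type male C57BL/6J mice, 2 months old, were compared, with 5 libraries each. FC stands for contextual fear conditioning: handled mice received 1 foot shock (1.5 mA, 2 s) in a chamber, and their hippocampi were collected 30 min later. RT stands for memory retrieval: mice with the same training went back into the chamber 24 h later for 5 min, and collection followed 30 min after this exposure. CC stands for handled controls that were never trained, with dissection at the matching time of day. Libraries carry the numbers 3, 5, 6, 7 and 8 in each group. By the study's methods each library came from both hippocampi of 1 mouse, although the deposited design text counts more animals than libraries, and n below counts libraries.

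The respiratory chain passes electrons from NADH (complex I) and succinate (complex II) through complex III and cytochrome c to oxygen at complex IV, and ATP synthase (complex V) uses the resulting proton gradient to make ATP. Complexes I, III, IV and V also contain subunits encoded in mitochondrial DNA, whereas complex II is wholly nuclear. Hippocampal neurons draw most of their ATP for ion pumping and synaptic transmission from this pathway. Several subunits of complex IV have tissue forms: Cox6a2, Cox7a1 and Cox8b are the heart and skeletal muscle forms, Cox4i2 is best known from lung and from cells in low oxygen, and Cox6b2, Cox7b2 and Cox8c are known from testis.

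Promoters are shown for 4 genes on which the results turn: Cox8b, the only member that passed the differential test, its paralog Cox8a, which carried almost all subunit 8 transcripts, Cox6a1, the most abundant form of its family, and Cycs, the cytochrome c gene. Each window runs from 250 bases before to 50 after the start of the RefSeq gene in build GRCm38.p6 and is written 5′ to 3′ along the gene. Capitals mark matches, on either strand, to the core letters GCGCATGC (the site of NRF1), CCGGAAG (ETS factors such as GABP), ATGGCGG (YY1) or GGGCGGG (GC box). The windows are chr7:140900397-140900696 for Cox8b, chr19:7217567-7217866 for Cox8a, chr5:115348909-115349208 for Cox6a1 and chr6:50566520-50566819 for Cycs, all on the minus strand.
Cox8b: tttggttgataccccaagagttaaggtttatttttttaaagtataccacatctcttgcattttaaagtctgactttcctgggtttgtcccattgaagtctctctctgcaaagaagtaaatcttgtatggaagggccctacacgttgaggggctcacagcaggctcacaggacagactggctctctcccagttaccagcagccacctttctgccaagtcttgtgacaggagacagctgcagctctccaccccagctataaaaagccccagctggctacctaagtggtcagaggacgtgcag
Cox8a: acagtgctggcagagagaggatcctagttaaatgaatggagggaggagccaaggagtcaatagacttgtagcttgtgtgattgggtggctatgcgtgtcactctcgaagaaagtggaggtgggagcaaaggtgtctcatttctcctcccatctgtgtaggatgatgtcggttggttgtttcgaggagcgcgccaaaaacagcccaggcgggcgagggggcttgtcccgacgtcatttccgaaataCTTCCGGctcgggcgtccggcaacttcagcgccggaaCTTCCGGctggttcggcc
Cox6a1: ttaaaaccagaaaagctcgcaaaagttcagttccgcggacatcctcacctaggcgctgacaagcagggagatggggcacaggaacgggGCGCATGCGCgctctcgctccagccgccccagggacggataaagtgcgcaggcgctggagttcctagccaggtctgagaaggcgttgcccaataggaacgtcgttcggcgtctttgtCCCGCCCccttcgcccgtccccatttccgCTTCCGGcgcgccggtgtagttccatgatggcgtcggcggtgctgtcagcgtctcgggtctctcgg
Cycs: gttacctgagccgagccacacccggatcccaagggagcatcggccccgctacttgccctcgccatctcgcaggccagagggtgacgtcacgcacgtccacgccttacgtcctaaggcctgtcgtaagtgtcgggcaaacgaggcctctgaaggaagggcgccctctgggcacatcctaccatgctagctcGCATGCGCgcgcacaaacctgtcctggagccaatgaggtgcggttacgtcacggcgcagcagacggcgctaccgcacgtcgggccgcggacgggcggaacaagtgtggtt
The Cox8b window held no match to the 4 motifs. The Cox8a window held 2 ETS matches, the Cox6a1 window held the NRF1 motif on both strands, 1 ETS match and 1 GC box, and the Cycs window held 1 NRF1 match. Windows were found for 75 of the 93 member symbols, 81 windows in all. The NRF1 letters occurred in 12 of these 81 windows (14.8%) and in 2.7% of all 32851 windows of the table, the ETS letters in 17 (21.0%) and 8.9%, the YY1 letters in 13 (16.0%) and 4.1%, and the GC box in 28 (34.6%) and 25.6%. Of the 81 windows, 51 held at least 1 of the 4 motifs, which was 63.0%, against 33.4% of all windows. Matches of different motifs overlapped in 0 of the member windows. A match is a run of letters and was not tested as a binding site.

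Library totals ranged from 35731428 to 62555543 reads. Of all 37310 genes, 18008 had more than 10 reads in more than 5 libraries and were tested, among them 92 members. The testis form Cox8c and the second Ndufb8 identifier (ENSMUSG00000091471) had 0 reads in all 15 libraries. Counts below were scaled to a common upper quartile (UQ) and are called scaled counts. Markers of hippocampal excitatory neurons, astrocytes, oligodendrocytes and microglia were all detected. In bulk tissue, fewer cells of a type and less RNA per cell cannot be told apart. Libraries FC3 and RT3 stood apart from the other 13 for these genes, so the main results are given with and without them. Each sequencing lane held 1 library of each group, but the labels do not say whether the numbers mark lanes. CC3 did not stand apart with them.

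Per kilobase of exon, the highest levels of single genes were those of Cox4i1 and Cox8a, both of complex IV. The median was higher for complex III (5146) than for complex IV (3337). Levels are means ± SD over the 13 libraries other than FC3 and RT3, in scaled counts per kilobase of exon. The length counts all annotated exons of a gene, and both ranks and medians depend on it. Atp5b has 4237 bases of exon but a coding transcript of 1916 bases, whereas Cox4i1 has 679 by both measures. Ndufb7 averaged 652 per kilobase of exon but 4732 per kilobase of coding transcript. Cox4i1, the common form of the regulatory subunit 4, averaged 27972 ± 1887, and Cox8a, the common form of the small subunit 8, averaged 26684 ± 1849. These levels differed by less than their SD. Cox6a1 averaged 18721 ± 1140. In complex I, Ndufa4 led with 18435 ± 1098 and Ndufb9, an accessory subunit, followed with 11949 ± 775. In complex V, Atp5b and Atp5a1, the catalytic beta and the alpha subunit of the ATP synthase head, had levels of 15108 ± 469 and 15081 ± 643, again within 1 SD of each other. In complex III, Uqcrc1, a core subunit, averaged 7770 ± 465 and Uqcr10, a small subunit, 6411 ± 474. In complex II, Sdha, the flavoprotein that oxidizes succinate, averaged 5704 ± 176 and Sdhd, a membrane anchor, 3232 ± 131. The assembly factors were lower, with Ndufaf3 at 1416 ± 79.3 and Ndufaf2 at 1040 ± 122. Cycs averaged 157 ± 21.2.

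**Figure D1:**
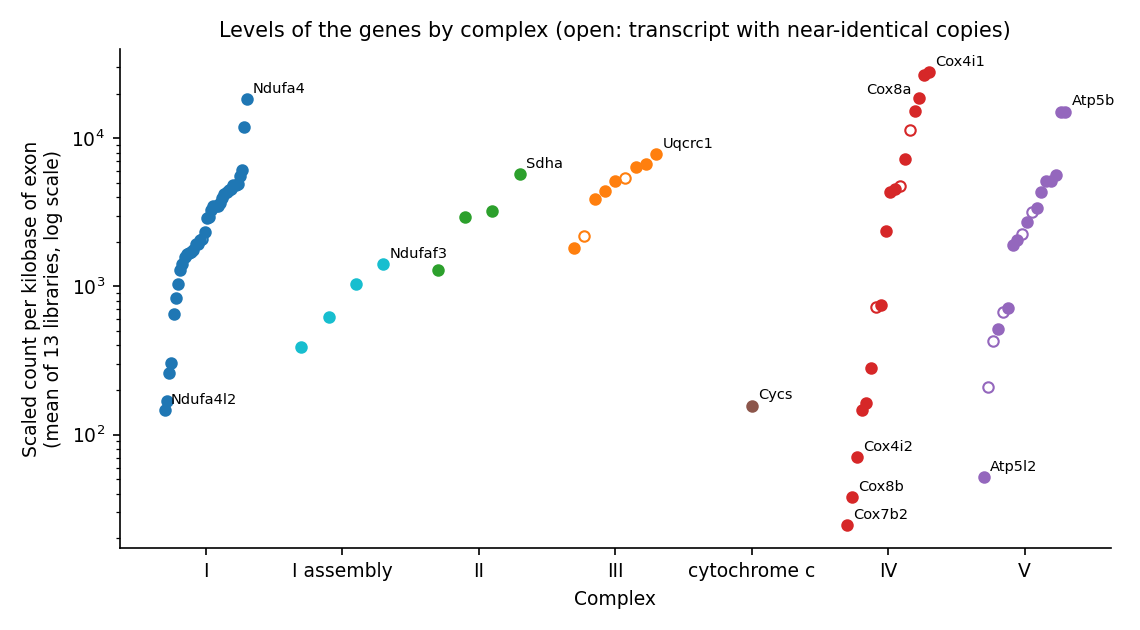
Scaled counts per kilobase of exon (mean of the 13 libraries other than FC3 and RT3, log axis) for the 92 genes tested, by complex. Each point is a gene, and open points mark transcripts matched elsewhere in the genome over at least 50% of their length; Cox4i1 and Cox8a are highest, at 27972 and 26684, and Cox7b2 is lowest, at 24.5.

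Unique mapping limits some of these levels. Only read pairs with a single location were kept, and 17 of the 93 members with a coding transcript matched another place in mm9 at 98% identity or more over at least 100 bases. In 12 of them the match covered at least 50% of the transcript: Ndufs3, Ndufs5, Uqcr11, Uqcrb, Cox5b, Cox7a2l, Cox7c, Atp5f1, Atp5g1, Atp5g2, Atp5h and Atp5l. Cycs was matched over 40.0%. Levels of these genes are therefore uncertain, and Atp5g2, matched over 100% of its length, averaged 209 ± 33.9. Exons of 20 member identifiers overlap those of another gene, and whether counting used the strand is not given in the sources used here, so these counts may be shared.

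Within paralog families the common form carried nearly all transcripts per kilobase in every library. Shares are means ± SD over the 15 libraries. Cox8a made up 99.86% ± 0.11 of subunit 8 and Cox8b 0.145% ± 0.109, which was 0.229% ± 0.156 in FC, 0.127% ± 0.0425 in RT and 0.0783% ± 0.0224 in CC (n = 5 each). Cox4i1 made up 99.75% ± 0.042 of subunit 4, with Cox4i2 at 0.251% ± 0.0419. The heart and muscle form Cox6a2 held 1.51% ± 0.197 of subunit 6a, and Cox7a1 held 1.24% ± 0.197 of the subunit 7a family, which also counts Cox7a2 at 59.8% ± 1.13 and Cox7a2l, a factor in assembling supercomplexes, at 38.95% ± 1.14. The testis forms Cox6b2 and Cox7b2 held 1.09% ± 0.18 and 0.581% ± 0.221 of their families. Ndufa4l2, known as a gene induced by low oxygen, held 0.798% ± 0.114 beside Ndufa4. Of the 3 genes for the identical subunit c of ATP synthase, Atp5g3 held 85.4% ± 0.952, Atp5g1 11.3% ± 0.633 and Atp5g2 3.35% ± 0.664, all subject to the mapping limit above. These shares also depend on the length used, since Atp5g1 has 4908 bases of exon but a coding transcript of 691. As shares of counts, without division by length, they were 76.4% for Atp5g3, 22.7% for Atp5g1 and 0.890% for Atp5g2. Per kilobase, the common form thus dominated 7 of the families, and the subunit 7a family was the only one divided between 2 abundant genes. FC3 and RT3 lay within the range of the other 13 libraries for all these shares except Cox7a1 (1.64% in FC3), Cox7a2 (62.4% in RT3), Cox7a2l (36.3% in RT3) and Atp5g2 (2.29% in FC3).

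The members differed most in 2 libraries, FC3 and RT3. For each gene, log2(scaled count + 1) was taken relative to its mean over the 15 libraries, and the median over the 92 members was 1.101 in FC3 and 0.61 in RT3. The other 13 libraries ranged only from -0.204 to 0.0136, a span that covers the other FC, the other RT and all CC libraries. FC3 held the highest value of the 15 libraries for 85 of 92 members, against 36.2% of all genes tested, and in 80 of those RT3 was second. It held the lowest value for 1 member, against 38.2% of all genes tested. The members made up 2.01% of all reads in FC3 and 1.52% in RT3, against 0.983% to 1.11% in the other libraries. The all-gene median deviated by -0.00544 in FC3 and 0.0533 in RT3, which does not show the spread of single genes. The paper describes more variation in these 2 libraries that remained after UQ.

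**Figure D2:**
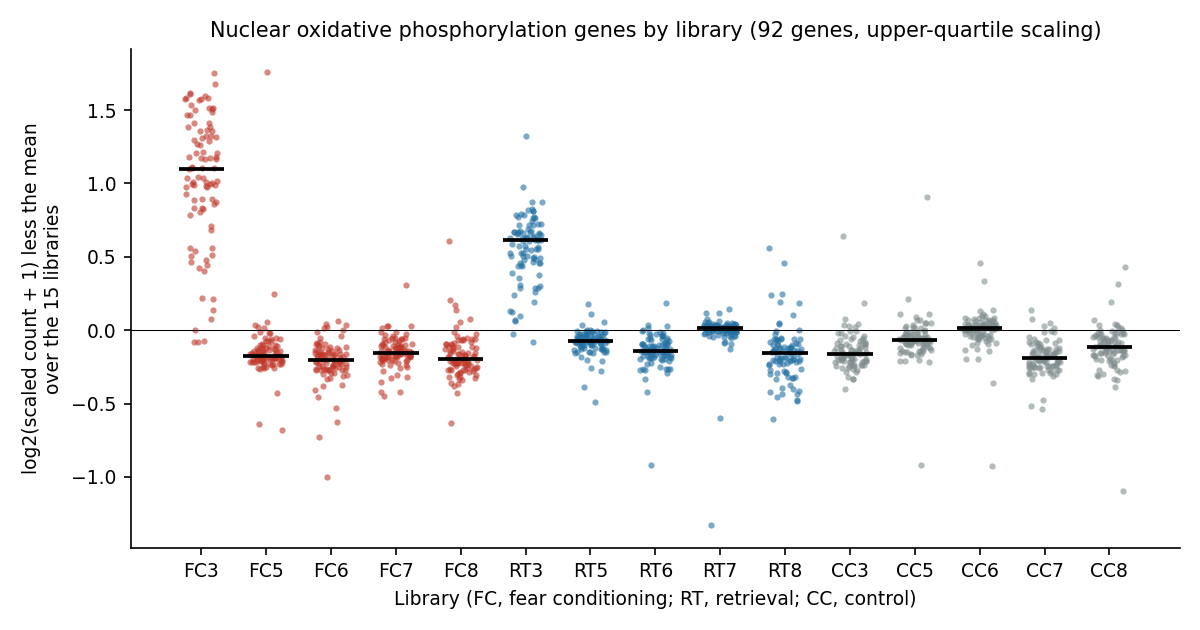
Each point is 1 of the 92 genes, plotted as log2(scaled count + 1) less its mean over the 15 libraries. FC libraries stand left, RT in the middle and CC right, and black bars are medians; FC3 (1.101) and RT3 (0.61) lie above the other 13 libraries, whose medians run from -0.204 to 0.0136.

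The excess in FC3 differed by complex. Its median deviation was 1.31 for complex IV, 1.14 for complex I, 1.06 for complex V, 0.97 for complex III and 0.91 for the assembly factors, but 0.50 for Cycs and 0.37 for complex II. In RT3 the same medians were 0.62, 0.63, 0.52, 0.59, 0.51, 0.19 and 0.34. Across the 92 members the FC3 and RT3 deviations had a Pearson correlation of 0.852 and a Spearman correlation of 0.827, which describes 2 libraries and not independent replicates.

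Values per library show the range. Scaled counts are given for the libraries numbered 3, 5, 6, 7 and 8, in that order. Ndufa4 had 20429, 8677, 8837, 8853 and 8469 in FC, 15426, 9311, 8951, 9974 and 8544 in RT, and 8570, 9627, 10116, 8827 and 9153 in CC. Apart from FC3 and RT3 the groups overlapped. Cox4i1 had 55207, 18504, 17591, 19025 and 18184 in FC, 32811, 19020, 18495, 21659 and 18278 in RT, and 18686, 19405, 21630, 17695 and 18741 in CC. FC3 was 3.01-fold above the mean of the other 4 FC libraries. Uqcrc1 had 27200, 12280, 11820, 12689 and 12207 in FC, 18805, 13218, 12538, 14277 and 12460 in RT, and 12500, 13090, 14172, 12281 and 13635 in CC, so that FC3 was 2.22-fold above the other FC libraries. Atp5b had 87745, 61887, 61130, 63502 and 63819 in FC, 82386, 64417, 63980, 66961 and 63835 in RT, and 62651, 64625, 68165, 61933 and 65267 in CC. Here FC3 exceeded the other FC libraries by only 1.40-fold. Ndufaf3, an assembly factor of complex I, had 3302, 1448, 1384, 1520 and 1461 in FC, 2362, 1604, 1462, 1592 and 1483 in RT, and 1468, 1574, 1672, 1406 and 1553 in CC. It showed the same library pattern. Cycs had 780, 469, 544, 474 and 635 in FC, 629, 420, 551, 520 and 648 in RT, and 625, 529, 576, 502 and 450 in CC, and FC3 was again the highest, by 1.47-fold over the other FC libraries.

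At the upper end stood small subunits. Atp5e, the epsilon subunit of ATP synthase, had 13266, 3608, 3334, 3513 and 3439 in FC, 7587, 3421, 3619, 4068 and 3786 in RT, and 3762, 3808, 3909, 3515 and 3352 in CC. FC3 was 3.82-fold above the other FC libraries, the highest fold of the 92 members. Uqcr11, a small subunit of complex III, had 12023, 3378, 3241, 3413 and 3292 in FC, 6772, 3666, 3397, 3922 and 3343 in RT, and 3286, 3396, 3773, 3330 and 3469 in CC. Ndufa11, a membrane-arm subunit of complex I, had 11846, 3242, 3140, 3365 and 3317 in FC, 6383, 3571, 3234, 3938 and 3618 in RT, and 3282, 3499, 3676, 3213 and 3508 in CC. Together with Ndufs6 (FC3 deviation 1.60) these were the 4 members of at least 100 scaled counts with the highest FC3 deviations, from 1.60 to 1.68.

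Some members did not share the excess. Ndufs1, the largest subunit of the matrix arm of complex I, had 5857, 5971, 6360, 6149 and 6146 in FC, 6517, 6030, 6055, 6383 and 6099 in RT, and 6296, 6308, 6416, 6139 and 6373 in CC. Sdha had 21032, 21307, 22310, 22354 and 21753 in FC, 23132, 21898, 21964, 22702 and 20912 in RT, and 22822, 22142, 23646, 21929 and 22194 in CC. FC3 was 0.951 and 0.959 times the mean of the other FC libraries for Ndufs1 and Sdha. Ndufb2 (-0.08) and Atp5s (0.0008), which encodes coupling factor B of ATP synthase, completed the 4 lowest FC3 deviations, and exons of Ndufb2 overlap those of Braf and Adck2.

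FC3 deviation fell with transcript length. Members are short: of the 91 tested members with a coding transcript, 67.0% had a median length under 1000 bases, against 13.9% of the other protein-coding genes tested. Over the 87 members of at least 100 scaled counts, the FC3 deviation and log10 of that length had a Pearson correlation of -0.66 and a Spearman correlation of -0.604. For RT3 the values were -0.705 and -0.648. Genes are not independent replicates, and these values describe 2 libraries. The 27 members under 600 bases had a median FC3 deviation of 1.33, against 0.835 for 278 other protein-coding genes of that length. Between 600 and 1000 bases the medians were 1.11 (30 members) and 0.679 (1364 other genes), and between 1000 and 2000 bases 0.818 (22) and 0.38 (3358). Between 2000 and 4000 bases they were 0.423 for 7 members and -0.121 for 5248 other genes. In each of these length classes members lay above other genes of like length, and the part of transcript length in the result was not tested. The high deviation was not particular to these genes, since it was 1.17 for 110 cytosolic ribosomal protein genes and 0.91 for 76 mitochondrial ribosomal protein genes.

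**Figure D3:**
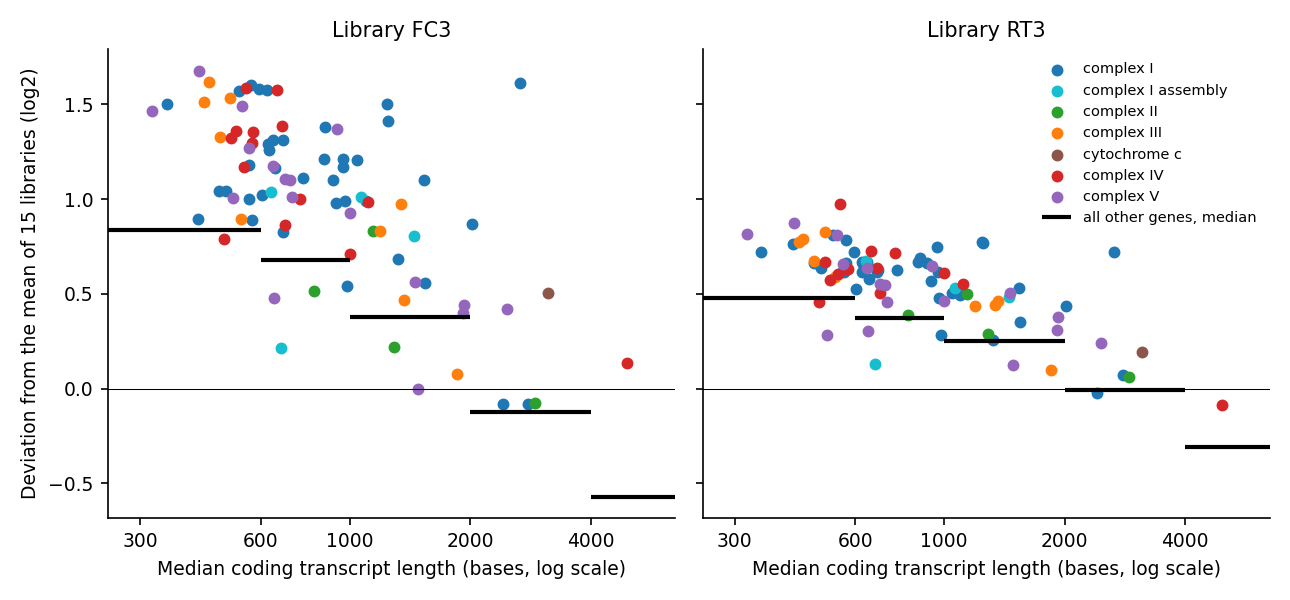
Deviation in FC3 (left) and RT3 (right), on the log2 scale, against the median coding transcript length of each gene (log axis) for the 87 members of at least 100 scaled counts, coloured by complex. Black bars are medians of all other protein-coding genes in each length class; members under 600 bases have a median of 1.33 in FC3 against 0.835 for other genes.

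Other parts of energy metabolism, from lists of genes with known roles, had smaller median deviations than the members. These lists were not matched to the members by transcript length, with which the deviation in FC3 fell. In FC3 the median deviation was 0.0425 for 16 genes of the TCA cycle, 0.254 for 23 other assembly factors, 0.547 for 11 carriers and porins, 0.66 for 16 genes of glycolysis and 0.0131 for 12 regulators of mitochondrial genes. The mitochondrially encoded subunits, which meet the members in the same complexes, stood the other way in FC3, with a median of -0.45. Of the 12 tested, 1 was above 0. In RT3 their median was -0.0139, within the range of the 13 other libraries (-0.165 to 0.383). Counts of some were low and uneven: mt-Co2 had 273 scaled counts in FC3 and 1245, 1591 and 1781 in CC8, FC8 and RT8. For mt-Co1 the FC3 value was 320527. Mitochondrial protein-coding genes took 2.11% of reads in FC3, against 3.58% to 4.23% in the 13 other libraries and 3.59% in RT3. Markers of oligodendrocytes (0.704), of pericytes and smooth muscle (0.806) and of striated muscle (0.656) also had medians above 0 in FC3. In these lists 6 of 6, 8 of 10 and 5 of 6 tested markers were above 0. Markers of microglia had a median of 0.111 (3 of 6 above 0) and those of endothelium of -0.227 (2 of 8). The part of these cell types in the result was not tested. The medians were -0.171 for markers of hippocampal excitatory neurons and -0.171 for those of astrocytes, with 3 of 8 and 3 of 6 markers above 0. Of the astrocyte markers, Gfap had 30116 scaled counts in FC3 and Aqp4 had 1449.

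Away from FC3 and RT3 the members varied about as much as all genes tested of at least 100 scaled counts. Over the 87 members of at least 100 scaled counts, the SD within groups on the log2 scale, taken over the 13 libraries, had a median of 0.0872, with a range from 0.0329 to 0.234. The median was 0.0884 for all 13746 genes tested with at least 100 scaled counts, which were not matched to the members by level.

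Fear conditioning was compared with untrained controls in the negative binomial model of edgeR (likelihood ratio test, FDR 0.01 by Benjamini-Hochberg over all 18008 genes), with 5 RUVs factors of unwanted variation and with UQ alone. A single member, Cox8b, passed the threshold, and it was higher in FC in both models. After RUVs that was 1 of 92 members (1.09%), against 2.24% of all genes tested in either direction 1.32% called higher and 0.922% called lower. After UQ it was again 1 of 92, against 0.189% of all genes (0.178% higher, 0.0111% lower). The other 91 members did not pass. At an unadjusted p under 0.05 there were 4 members after RUVs, against 16.5% of all genes, and 1 after UQ, against 3.07%.

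The median log2 fold change of the 92 members after RUVs was -0.0016, and -0.0138 over all genes tested. Apart from Cox8b, the member farthest from 0 was Cox7b2 (-0.81). Without FC3 and RT3 the median was -0.0446, and 13 members had an unadjusted p under 0.05, against 17.1% of all genes. With all 15 libraries the median was 0.0039 for complex I, -0.0066 for the assembly factors, -0.0367 for complex II and -0.0114 for complex III. For Cycs the value was -0.0079, and the medians were -0.001 for complex IV and -0.0077 for complex V. The 95% interval of the fold change lay wholly within 10% of no change for 68 of 92 members (73.9%), against 35.6% of all genes tested. The median SE was 0.0381 for members and 0.0562 for all genes. These intervals hold after removal of the RUVs factors, with 7 residual degrees of freedom. Here and below, the SE is the log2 fold change divided by the root of the likelihood ratio statistic. The limits use the normal distribution without allowance for the residual degrees of freedom, and may be too narrow. The share over all genes includes genes of few reads and was not matched to the members by level. With UQ alone the median SE of the members was 0.232, none of the 92 had an interval within 10% (all genes, 0%), and the median log2 fold change was 0.27. Leaving out FC3 turned that median to -0.0718, so its sign after UQ rested on this library.

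RT against CC gave 0 members past the threshold of the likelihood ratio test of edgeR, against 1.01% of all genes after RUVs (0.866% higher, 0.144% lower) and 0.106% after UQ (0.1% higher, 0.00555% lower). The quasi-likelihood test and DESeq2 also called 0. After RUVs the unadjusted p was under 0.05 for 13 members (14.1%), against 11.1% of all genes, and 11 of the 13 had a positive fold change. This count ranged from 6 (without RT5, against 9.72% of all genes) to 18 (without FC3, against 13.1%) when single libraries were left out. Without both FC3 and RT3 the count was 6, against 11.1% of all genes. After UQ the unadjusted p was under 0.05 for 1 member, against 1.39% of all genes. The median log2 fold change was 0.0253, against -0.0012 over all genes, and 70 of 92 members were above 0 (76.1%, against 49.3% of all genes). Without FC3 and RT3 the median was 0.0106, and over all alternatives it ran up to 0.0481 (without RT8). Intervals lay within 10% of no change for 59 members (64.1%, against 38.9% of all genes). With UQ alone the median was 0.178, and without RT3 it was 0.009.

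FC against RT gave 0 members, against 0.122% of all genes after RUVs (0.0777% higher, 0.0444% lower) and 0% after UQ in the same edgeR test, and again 0 by the quasi-likelihood test and DESeq2. Unadjusted p was under 0.05 for 5 members after RUVs (10.7% of all genes) and for 1 after UQ (0.677% of all genes). The count after RUVs ranged from 2 (without FC5, against 9.78% of all genes) to 22 (without RT8, against 13.4%) when single libraries were left out. Without both FC3 and RT3 the count was 22, against 12.8% of all genes, and the median log2 fold change was -0.0564. With all 15 libraries the median log2 fold change after RUVs was -0.0322 (all genes, -0.0143). Of the 92 members 76 were below 0 and 16 above (17.4% above, against 41.6% of all genes). Intervals lay within 10% for 63 members (68.5%, against 38.8% of all genes). FC and RT are each set against the same CC libraries, so the comparisons share libraries. With UQ alone the median was 0.117, and leaving out FC3 turned it to -0.255.

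**Figure D4:**
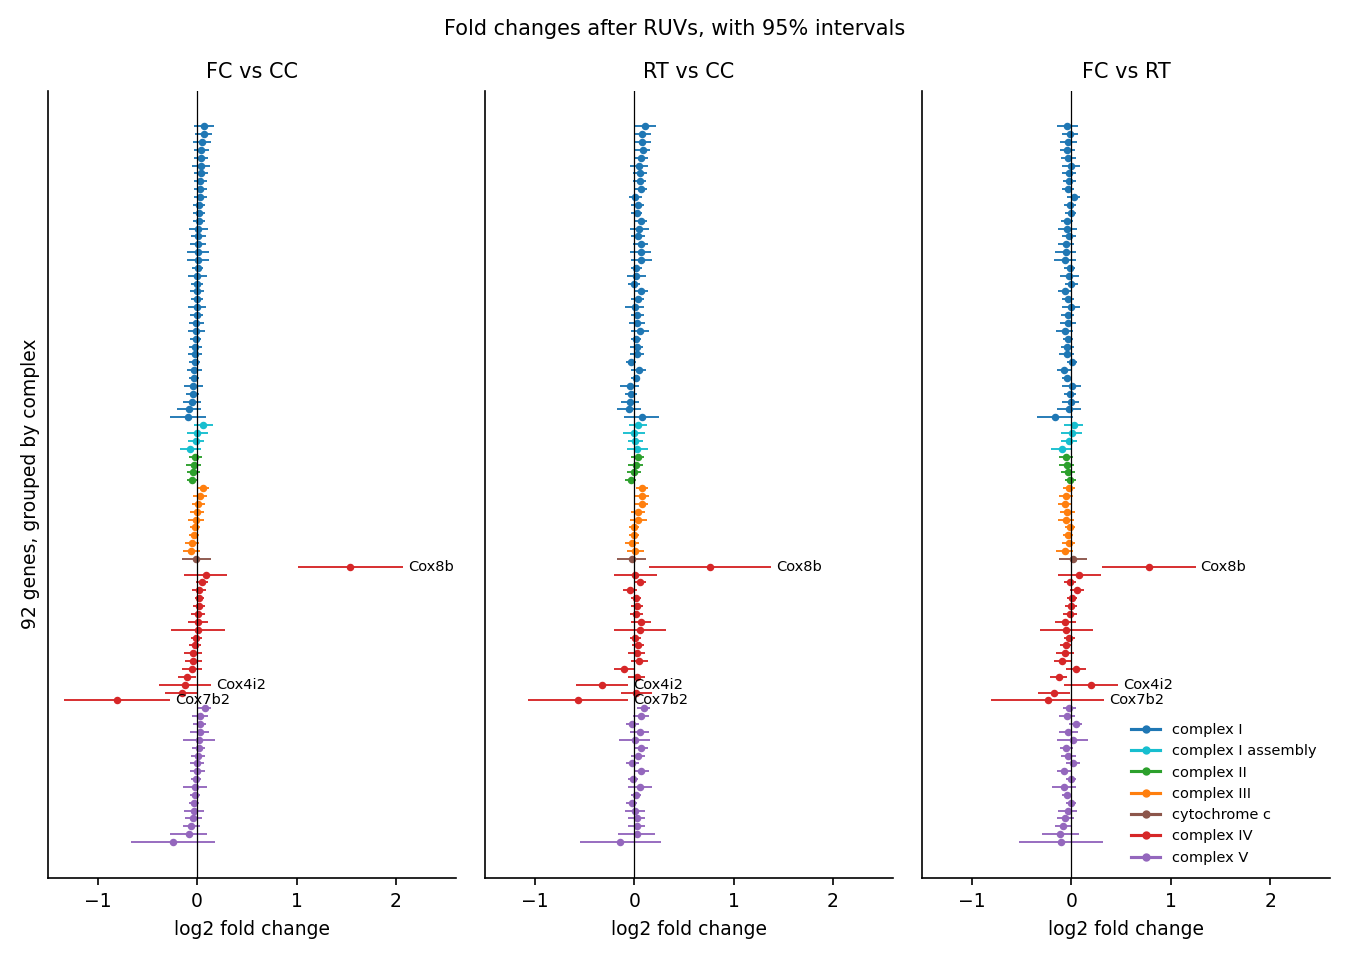
Log2 fold change with 95% interval after RUVs for each of the 92 genes in FC vs CC, RT vs CC and FC vs RT, grouped by complex. Most genes lie close to 0; Cox8b in FC vs CC (1.54) is the only gene past FDR 0.01, and Cox8b and Cox7b2, with few reads, have the widest intervals.

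Cox8b encodes the heart and skeletal muscle form of complex IV subunit 8. It is a gene of 2 exons on chromosome 7 of mm9 (148084842 to 148086345, minus strand, ENSMUSG00000025488), and its promoter window is the first printed above. Its scaled counts were 46.6, 46.9, 9.65, 13.4 and 20.5 in FC3, FC5, FC6, FC7 and FC8, 18.9, 12.8, 10.7, 8.34 and 19.8 in the RT libraries of the same numbers, and 9.73, 6.48, 6.43, 8.74 and 5.63 in CC. FC3 and FC5 were the highest, and FC6 lay within the CC range. Means were 27.4 ± 18.1 in FC, 14.1 ± 5.06 in RT and 7.4 ± 1.74 in CC (SD, n = 5 each). The log2 fold change of FC over CC was 1.54 (SE 0.27, edgeR adjusted p = 2.41e-06), a fold of 2.91 with a 95% interval from 2.02 to 4.19. After UQ it was 1.86 (SE 0.38, edgeR adjusted p = 7.78e-04). RT over CC gave 0.76 on the log2 scale (SE 0.31, edgeR adjusted p = 0.269), and FC over RT gave 0.78 (SE 0.24, edgeR adjusted p = 0.101), and neither passed the threshold. After removal of the RUVs factors, log2 values ran from 1.79 to 3.34 in FC, 1.66 to 2.44 in RT and 0.681 to 1.89 in CC.

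The call depended on library FC5. Without FC5 the log2 fold change was 0.92 (edgeR adjusted p = 0.112), and without FC3 and RT3 it was 1.30 (edgeR adjusted p = 5.05e-04). The quasi-likelihood test gave an adjusted p of 0.0291. DESeq2 gave a log2 fold change of 1.52 with an adjusted p of NA, so it assigned none and gave no call either way. Markers of the choroid plexus, the secretory epithelium of the ventricles, moved in some of the same libraries. After RUVs, 13 of 14 were called higher in FC than in CC at FDR 0.01, against 1.32% of all genes. In RT over CC 1 was called higher (0.866% of all genes), and in FC over RT 5 were (0.0777%). All 14 had positive log2 fold changes in each comparison, with lowest values of 0.491, 0.195 and 0.297 in that order. Their summed scaled counts were 14673, 84478, 14235, 16902 and 41894 in the FC libraries, from 11398 to 30080 in RT and from 10817 to 12008 in CC, and none of the 14 was at 0 in all libraries. Of the 13, Ttr (3.49, SE 0.38), Kcnj13 (2.45, SE 0.27) and Aqp1 (1.83, SE 0.25) had the smallest p in FC over CC on the log2 scale. FC5, with the highest sum, had 46.9 scaled counts of Cox8b, whereas FC3, with a sum near that of FC6, had 46.6. The sums of FC3 and FC6 rest largely on Enpp2, with 6908 in FC3 and 9988 in FC6, and single markers differed. Ttr, the transthyretin gene that defines this epithelium, had 46548 scaled counts in FC5, 6174 in FC3 and 2332 in FC6. In scaled counts the median deviation of the 14 markers was -0.296 in FC3, with 6 above 0, and -0.163 in FC6. After removal of the RUVs factors this median was 1.04, 1.48, -0.137, 0.90 and 1.01 in FC3, FC5, FC6, FC7 and FC8. The log2 values of Cox8b were then 2.72, 3.34, 1.79, 2.87 and 2.53 in the same libraries. Without FC5 and FC8, an alternative chosen after seeing the data, the log2 fold change of Cox8b was 0.72 (edgeR adjusted p = 0.448). Of the striated muscle markers 6 of 9 were tested and 0 were called, with summed counts of 799 to 1645 in FC, 868 to 1230 in RT and 773 to 1092 in CC. The part of either cell type in the result was not tested.

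**Figure D5:**
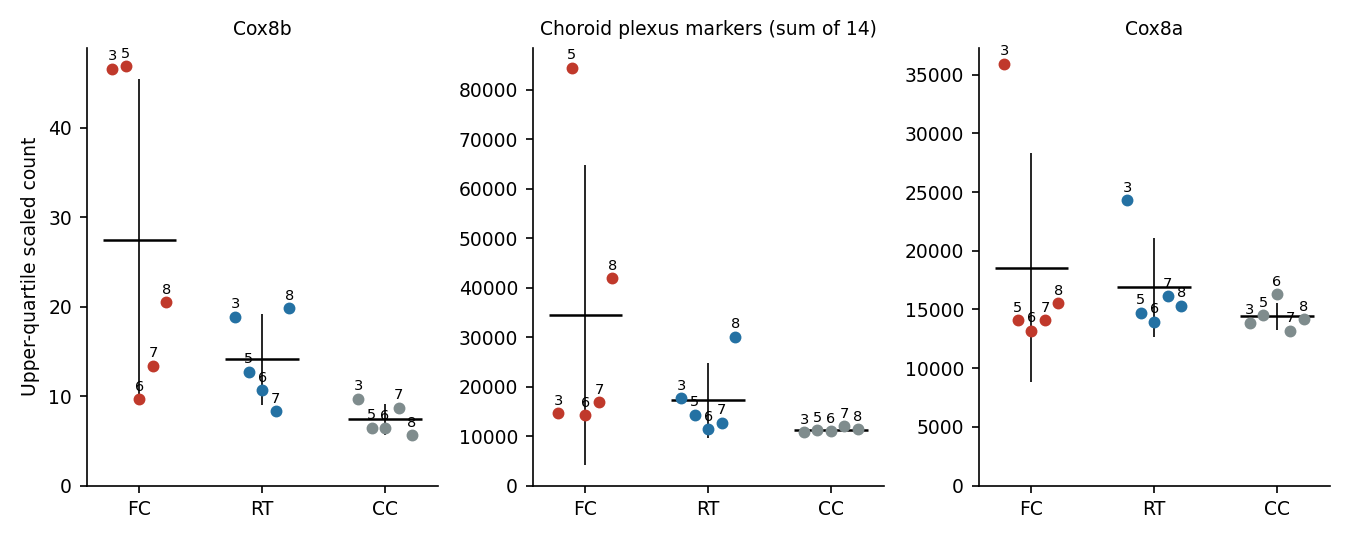
Upper-quartile scaled counts of Cox8b, of 14 choroid plexus markers summed, and of Cox8a, with FC left, RT in the middle and CC right. Points are libraries with their numbers, and bars are means ± SD (n = 5). Cox8b is highest in FC3 (46.6) and FC5 (46.9), the marker sum in FC5 (84478) and Cox8a in FC3 (35927).

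Cox8a, the common form of the same subunit, had 35927, 14068, 13202, 14081 and 15511 in FC, 24283, 14729, 13957, 16142 and 15331 in RT, and 13878, 14532, 16286, 13195 and 14148 in CC. It stood high in FC3 and RT3 only. Cox7b2, the testis form of subunit 7b, had the next smallest p between FC and CC, with 32.4, 8.21, 8.57, 10.98 and 8.55 in FC, 26.1, 15.7, 6.82, 15.0 and 9.92 in RT, and 22.1, 26.7, 19.3, 9.61 and 11.3 in CC. Its log2 fold change was -0.81 in FC over CC (SE 0.27, edgeR adjusted p = 0.0632) and -0.57 in RT over CC (SE 0.26, edgeR adjusted p = 0.354). Neither passed the threshold, and the groups overlapped.

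Other members with small unadjusted p values did not pass the threshold. Cox7b, the common form, had 9149, 4907, 5015, 4957 and 4619 in FC, 8537, 5478, 5435, 5631 and 4862 in RT, and 5054, 5797, 5929, 5046 and 5268 in CC. Apart from FC3, every FC library lay below every CC library, but the log2 fold change after RUVs was -0.10 (SE 0.044, edgeR adjusted p = 0.193) and -0.13 between FC and RT (edgeR adjusted p = 0.174). Atp5g1, which encodes subunit c of the ATP synthase ring, had 7784, 3152, 3287, 3420 and 3190 in FC, 5296, 3541, 3357, 3624 and 3162 in RT, and 3221, 3207, 3288, 3222 and 3342 in CC. It had the smallest p of the members between RT and CC, at 0.10 on the log2 scale (SE 0.034, edgeR adjusted p = 0.137). Cox4i2 had -0.33 in RT over CC (SE 0.13, edgeR adjusted p = 0.271) and Uqcr11 had 0.08 (SE 0.031, edgeR adjusted p = 0.237).

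In the neighbouring lists 2 genes passed after RUVs between FC and CC, against 2.24% of all genes tested. In that comparison 1 of 12 tested mitochondrially encoded subunits was called, mt-Nd2 of complex I, at -0.16 (SE 0.036, edgeR adjusted p = 5.30e-04), and 1 of 11 carriers and porins, Ucp2, an inner-membrane carrier of the uncoupling protein family, at 0.22 (SE 0.056, edgeR adjusted p = 0.00505). The TCA cycle (16 genes), glycolysis (16), other assembly factors (23) and regulators of mitochondrial genes (12) had 0 called. Their median log2 fold changes were -0.0397, -0.0278, -0.0206 and 0.0005, close to that of all genes (-0.0138). In the other 2 comparisons 0 genes of these 6 lists were called. Among markers of other cell types, Sox18 of the endothelium was called in FC over CC (-0.74, SE 0.07, edgeR adjusted p = 3.26e-23) and in RT over CC (-0.63, SE 0.069, edgeR adjusted p = 6.33e-17). No marker of pericytes, hippocampal excitatory neurons, astrocytes, oligodendrocytes or microglia was called in FC over CC.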

How the data were processed

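Hippocampal polyA RNA was sequenced in 15 libraries, 5 each of FC, RT and CC. The authors aligned read pairs with GSNAP to mm9, kept unique concordant pairs, and deposited raw counts per Ensembl gene made with HTSeq 0.6.1. These counts carry no normalization, and the counting mode is not given in the sources used here. Symbols, positions and lengths came from the matching GENCODE annotation, to which all 37310 identifiers matched. Totals of 35731428 to 62555543 reads per library limit precision mainly for genes of few reads.

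The 18008 genes with over 10 reads in over 5 libraries entered a joint fit of the 15 libraries (edgeR 4.0.16, R 4.3.3). Likelihood ratio tests at FDR 0.01 used upper-quartile factors and either no further factor (UQ) or 5 RUVs factors from 625 negative control genes. The RUVs step was re-implemented, and the models were tested on simulated data. Alternatives were TMM factors, other filters, the quasi-likelihood test, DESeq2 1.42.0, the library number as a block, 1 or 3 RUVs factors, all genes as negative controls, and leaving out libraries. Near-identical copies were searched with blastn 2.17.0 in mm9. Promoters came from a RefSeq table of GRCm38.p6.

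Named genes are members called after RUVs, the 2 highest per complex, paralog families, the 4 highest and 4 lowest FC3 deviations, members left out by the filter, and called genes of other lists. Values per library are printed for a selection of these, with Cox7b2, Cox7b, Cox4i2, Atp5g1 and Uqcr11, chosen after their values were seen. The members and lists were chosen with earlier results of these data known. Deviations from the group means correlated between same-numbered FC and RT libraries at 0.381 to 0.919 over 14991 genes, and at 0.117 to 0.615 without the number 3 libraries. Differently numbered FC and RT libraries reached 0.669. Of 10 libraries, 7 were nearest to their own number, and 6 of 8 without the number 3 libraries. The labels do not say whether the numbers pair FC with RT. Same-numbered CC libraries correlated at -0.49 to 0.347 with FC and at -0.509 to 0.111 with RT.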

Additional observations from a re-analysis of the deposited data

Results flagged for a closer look

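In groups of 5 libraries, 1 library was far from the other 4 by Dixon's criterion (gap over range above 0.71) in 37 of 75 groups looked at, and chance gives about 1 in 20 in a single group. The sets are nested, all rest on the same libraries, and Atp5e, Uqcr11 and Ndufa11 were named for their high FC3 deviation, so the count is a description and not a test. The far library was FC3 in 20 cases and RT3 in 17. For FC3 the ratio of gap to range was 0.961 for the median of all members, 0.956 for complex I, 0.905 for its assembly factors, 0.875 for complex II, 0.973 for complex III, 0.934 for complex IV, 0.947 for complex V and 0.978 for the members' share of reads. For RT3 the ratios were 0.778 for the median of all members, 0.783 for complex I, 0.766 for its assembly factors, 0.732 for complex IV, 0.787 for complex V and 0.787 for the share of reads.

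Among single genes, FC3 stood apart at a ratio of 0.968 for Ndufa4, 0.974 for Ndufa11, 0.929 for Ndufaf3, 0.944 for Uqcrc1, 0.98 for Uqcr11, 0.962 for Cox4i1, 0.898 for Cox8a, 0.886 for Cox7b2, 0.913 for Cox7b, 0.899 for Atp5b, 0.972 for Atp5e and 0.942 for Atp5g1. RT3 stood apart at 0.792 for Ndufa4, 0.776 for Ndufa11, 0.843 for Ndufaf3, 0.714 for Uqcrc1, 0.831 for Uqcr11, 0.767 for Cox4i1, 0.788 for Cox8a, 0.791 for Cox7b, 0.831 for Atp5b, 0.845 for Atp5e and 0.783 for Atp5g1. Sdha, Ndufs1, Cycs and Cox8b had no library past the criterion in any group.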

How the results depend on the processing

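In FC over CC the count of members called was 1 after RUVs and 1 after UQ. It was 0 in both models under the quasi-likelihood test, under DESeq2, and, in alternatives chosen after seeing the data, without FC5 and FC8 or without FC3, FC5 and FC8. After RUVs, DESeq2 gave Cox8b an adjusted p of NA, that is, none was assigned. The count of 0 there is therefore not a test result for this gene. Leaving out each library in turn gave 0 to 2 after RUVs (0 without FC5, 2 without CC8, where Cox7b2 was added) and 0 to 1 after UQ (0 without FC5, and 0 without CC5, where the edgeR adjusted p was 0.0103). The log2 fold change of Cox8b ran from 0.72 to 1.86 over 27 alternatives to the RUVs result with an adjusted p, UQ alone included, and 23 of them kept the call. RT against CC and FC against RT gave 0 members under every alternative run. With the number as a replicate block the counts were 1, 0 and 0 for FC vs CC, RT vs CC and FC vs RT in both models, so this block changed no call of a member. The median deviation of the members was 1.23 in FC3 and 0.741 in RT3 when centred on the 13 other libraries, and leaving out a library gave 1.08 to 1.14 for FC3 and 0.588 to 0.688 for RT3. The cause of these differences was not tested. Genes of few reads, such as Cox8b and Cox7b2, are where depth limits the comparison.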
